A study of Rattus norvegicus with 16 samples.

Results

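The genes described here mark the blood vessels of the brain: the endothelial cells that line them, the smooth muscle cells and pericytes around them (mural cells), and the transporters that endothelial cells place in the blood-brain barrier. They are Flt1, Kdr, Vwf, Pecam1, Slc2a1, Abcb1a, Abcb1b, Abcb4, Acta2 and Tagln. Their members on the array were all probe sets whose platform annotation gives one of these 10 symbols, which were 19 of the 8740 probe sets that are not controls. Of the 19, 15 carry 1 symbol, and 4 are annotated to both Acta2 and Actc1, the smooth muscle and cardiac actins, so their signal cannot be given to either gene. A filter on low values passed 14 of the 19, from 9 of the 10 genes.

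Total RNA of rat dentate gyrus, the hippocampal field built on granule neurons, was hybridised to 16 Affymetrix RGU34A arrays, a one-colour rat expression array. The series is titled for passive avoidance, a learning task in which an animal comes to avoid a place where it had an unpleasant stimulus. There were 2 arrays each at 0 h, 2 h, 3 h, 12 h and 24 h and 3 at 6 h, 13 in all and called trained here, and a naive group of 3 arrays, which is taken as the untrained baseline although its labels, like all others, also name trained rats. The labels do not say from what event the hours count, whether an array holds 1 animal or a pool, or what strain, sex and age the rats had. P-values therefore reflect the spread between arrays alone, and that spread may be technical.

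Brain endothelial cells are sealed by tight junctions, so glucose and other nutrients cross on transporters, and many drugs that enter the cell are pumped back to the blood by ATP-binding cassette proteins. VEGF receptors on the endothelium control vessel growth and permeability. Smooth muscle cells of arterioles carry an actin and actin-binding proteins whose genes are switched on by serum response factor acting with myocardin at CArG boxes. Vessels are a small part of this tissue, and in RNA from whole tissue fewer cells of a type and less RNA per cell cannot be told apart.

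A promoter window of 300 bases (250 before to 50 after the gene's start, from RefSeq on the rat build GRCr8) was found for 7 of the 10 genes. The Acta2 window lies at chr1:241172454-241172753 on the minus strand and is shown because Acta2 and Tagln varied together between arrays. Its capitals mark 2 CArG-like boxes, which start 134 and 84 bases before the gene's start. The search was for CC and GG around 6 bases, at least 5 of them A or T, a pattern that reads the same way on both strands. This pattern was present in 9.42% of 33469 rat promoter windows, and in the stricter form with all 6 bases A or T in 1.64%, which no member window held. The Kdr window held 1 match of the looser form and the other 5 windows none.
Acta2: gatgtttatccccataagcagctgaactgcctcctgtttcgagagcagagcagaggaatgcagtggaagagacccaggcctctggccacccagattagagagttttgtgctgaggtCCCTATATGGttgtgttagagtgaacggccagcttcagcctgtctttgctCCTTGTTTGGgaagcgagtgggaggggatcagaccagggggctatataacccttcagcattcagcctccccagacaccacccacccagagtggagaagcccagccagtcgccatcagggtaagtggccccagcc

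The windows of Abcb1a, at chr4:26397599-26397898, and of Abcb1b, at chr4:26279980-26280279, both on the minus strand, are shown because these close copies are the P-glycoprotein genes whose levels are given below. Abcb4, Abcb1b and Abcb1a follow each other on chromosome 4 with 0 other protein-coding genes between them. The capitals mark the 2 runs of at least 12 letters that both windows hold, the longest of 15 letters. The Abcb4 window shares no such run with either.
Abcb1a: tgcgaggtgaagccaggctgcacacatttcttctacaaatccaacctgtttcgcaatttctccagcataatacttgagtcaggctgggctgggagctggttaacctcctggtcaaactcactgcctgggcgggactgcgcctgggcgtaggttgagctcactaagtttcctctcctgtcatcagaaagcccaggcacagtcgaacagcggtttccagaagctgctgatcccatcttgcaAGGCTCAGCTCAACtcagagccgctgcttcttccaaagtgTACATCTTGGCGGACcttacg
Abcb1b: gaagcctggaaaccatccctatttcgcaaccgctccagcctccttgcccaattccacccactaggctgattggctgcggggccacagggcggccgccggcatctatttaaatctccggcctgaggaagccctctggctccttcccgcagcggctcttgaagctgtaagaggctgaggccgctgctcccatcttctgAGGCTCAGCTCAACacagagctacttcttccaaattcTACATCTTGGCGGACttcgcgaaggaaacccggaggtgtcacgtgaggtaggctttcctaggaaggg

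Each array was multiplied by a factor that brought its 2% trimmed mean to 105, and values are given below as scaled intensities in these units. Values under 5.05 were set to that floor before log2 was taken. Before scaling the trimmed mean ranged from 33.3 on 12 h replicate 1 to 170 on 24 h replicate 2, a 5.11-fold range. Correlations between arrays lay between 0.908 and 0.973, with 6 h replicate 2 and 12 h replicate 1 the least like the rest, and no 2 arrays were identical. A probe set was tested when it exceeded 16.9 on at least 2 arrays, as 6220 did. The number of arrays limits the precision. Different probe sets bind with different strength, so levels are compared between arrays for 1 probe set and not between probe sets. The suffixes are Affymetrix's own, and sets ending in _s_at or _f_at can share probes with related transcripts.

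The endothelial label was borne out in part by its markers. Flt1 exceeded the filter on 16 arrays and Pecam1 on 15, but Kdr did so on 3, and neither probe set of Vwf passed the filter. Of 36 other endothelial genes listed, 17 were on the array and 14 were tested. Among the 14, the tight junction genes Tjp1 and Ocln were above the filter on 16 and 12 arrays, but Cav1 on 3 and Ptgis on 2. Icam2, Sele and Angpt2 exceeded the filter on 0 arrays and were not tested. Of 29 other mural and smooth muscle genes, 23 were on the array and 18 were tested, with Myl9 above the filter on 16 arrays, Myh11 on 10 and Pdgfrb on 8, while Des was at the floor on 15. Of 11 genes listed for dentate granule neurons, 7 were on the array and 6 were tested. Calb1, Neurod1, Bdnf and Gria1 were above the filter on all 16 arrays, Rab3c on 14 and Camk2a on 10. Tdo2 was at the floor on 14.

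No tested probe set of these genes passed limma's test after Benjamini-Hochberg adjustment in any comparison with naive, in the F test over the 7 groups, or in the F test over the 6 trained groups. The background was low as well. The share of all 6220 probe sets that passed was 0% in each of these comparisons other than 2 h against naive, where it was 0.0161%. At an unadjusted p under 0.05, 1 of the 14 passed at 0 h (background 5%), 3 at 2 h (7.67%), 1 at 3 h (4.31%), 3 at 6 h (9.41%), 1 at 12 h (10.1%), 1 at 24 h (4.44%) and 0 in trained against naive (5.35%). The F test gave 5 of 14 over the 7 groups (10.3%) and 4 over the trained groups (10.8%). Several of the 14 measure the same gene, so these counts are not of separate genes. Abcb1a is among those counted at 2 h, at 6 h and over the 7 groups. It passed the filter only through arrays of 2 h and 6 h, where it was high. The comparisons share the same 3 naive arrays.

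Probe sets whose arrays did not overlap with the naive arrays numbered 5 of 14 at 0 h (21.7% of all tested), 5 at 2 h (27%), 4 at 3 h (19.3%), 1 at 6 h (10.9%), 4 at 12 h (27.7%), 5 at 24 h (20.6%) and 0 in trained against naive (0.257%). Abcb1a, with its naive arrays at the floor, is among those at 0 h, 2 h, 6 h and 12 h. All 5 at 24 h lay below naive (11.8% of all tested): Flt1, Abcb4, both Tagln probe sets and Slc2a1 _s_at. The median log2 difference from naive over the 14 was -0.30 at 24 h and -0.25 at 3 h, against -0.004 and -0.07 over all tested probe sets. In the other comparisons it lay between -0.18 and 0.18.

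**Figure D1:**
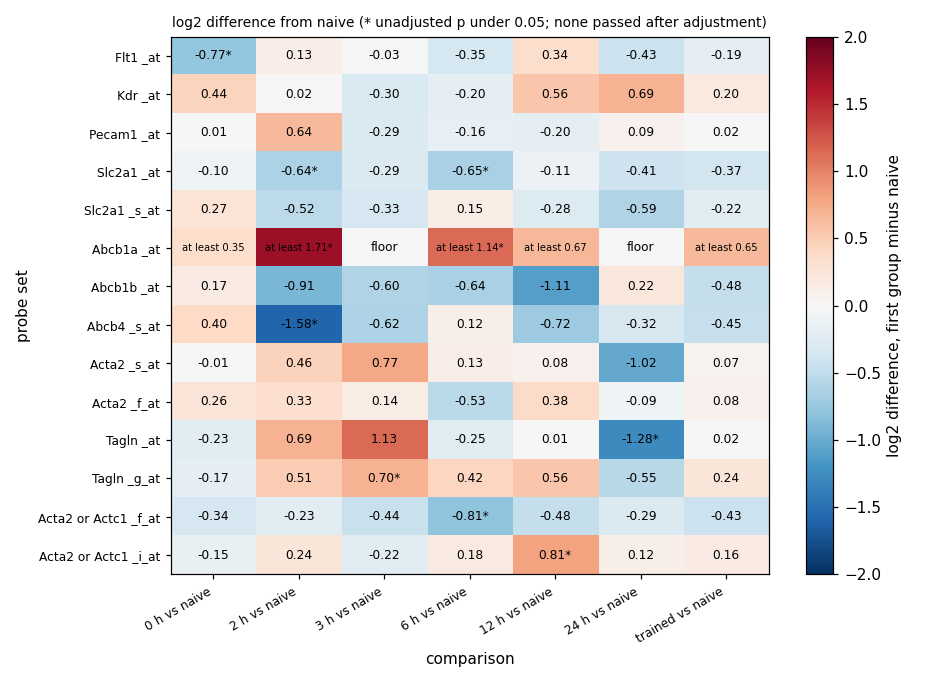
Log2 difference of each hour group, and of the mean of the 6 trained groups, from naive for the 14 tested probe sets, with colour from -2 to 2. Stars mark an unadjusted p under 0.05, "at least" a naive group at the floor, and "floor" a pair with both groups at the floor. The largest values are those of Abcb1a (at least 1.71) and Abcb4 (-1.58) at 2 h and of Tagln _at at 24 h (-1.28).

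Flt1 and Kdr encode the receptors VEGFR1 and VEGFR2. VEGFR2 carries most of the growth signal of VEGF, and VEGFR1 binds VEGF tightly and limits it. Flt1 measured 38.1, 44.5 and 33.3 in the naive arrays, 22.8 and 22.1 at 0 h, 51.8 and 33.8 at 2 h, 45.8 and 30.7 at 3 h, 23.1, 35.9 and 33.1 at 6 h, 54.3 and 43.7 at 12 h, and 33.1 and 24.5 at 24 h. Both 0 h arrays were below every other array, and the 12 h arrays were among the highest. At 0 h the log2 level of Flt1 was 4.49 ± 0.04 (SD, n = 2), against 5.26 ± 0.21 in naive (n = 3). The difference was -0.77 (SE 0.32), and it did not pass after adjustment (limma, adjusted p = 0.96). It was -0.30 with the beta-actin 3'/5' ratio of each array as a covariate, a measure of RNA length that was 2.62 and 2.30 on the 0 h arrays and 1.49 to 1.70 on the naive arrays. The ratio did not overlap between these groups, so its part in the Flt1 difference cannot be told apart from the group's. It was not tested further.

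Kdr was close to the limit of measurement. It had 8.23, 18.3 and 11.7 in the naive arrays, 16.2 and 16.6 at 0 h, 15.8 and 9.49 at 2 h, 10.4 and 9.29 at 3 h, 9.50, 14.6 and 8.34 at 6 h, 12.95 and 24.4 at 12 h, and 31.6 and 12.0 at 24 h. Every trained group had at least 1 array within the naive range, and the mean of the highest group, 24 h, rested on replicate 1. The log2 difference of 24 h from naive was 0.69 (SE 0.52, limma adjusted p = 1), and -0.01 without 24 h replicate 1.

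The ligands and partners of these receptors did not pass either. Of 11 genes listed for VEGF and angiopoietin signalling, 6 were tested and 0 passed in any comparison. Vegfb, a ligand of VEGFR1, had a log2 level of 5.17 at 12 h and 6.11 in naive (difference -0.94, SE 0.29, limma adjusted p = 0.333). Vegfa, the main endothelial growth factor, was at 4.97 at 12 h and 3.88 in naive (difference 1.09, SE 0.50, limma adjusted p = 0.485). At 3 h 0 of the 6 were above naive, with a median log2 difference of -0.23.

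**Figure D2:**
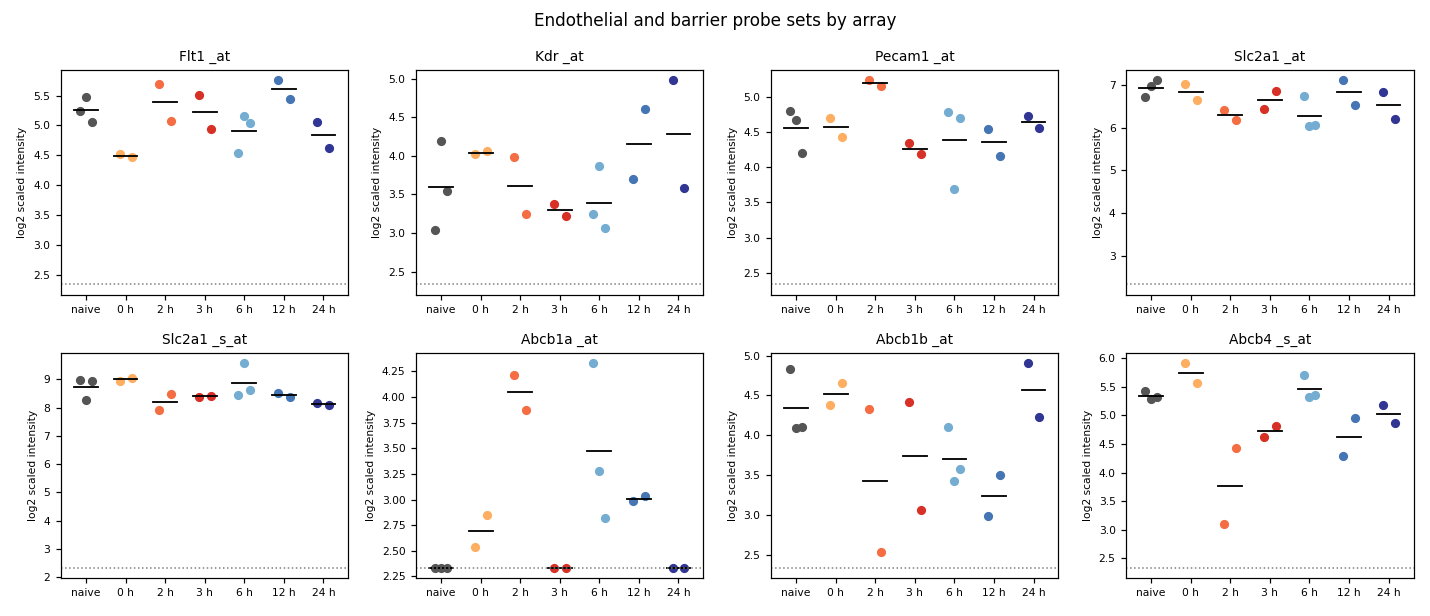
Log2 scaled intensity (vertical) of 8 endothelial and barrier probe sets on each array, by group from naive to 24 h. Points are arrays, bars are group means, and the dotted line is the floor. Flt1 is lowest at 0 h, Abcb4 at 2 h, and Abcb1a lies on the floor in all naive, 3 h and 24 h arrays.

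Pecam1 encodes CD31, an adhesion molecule at the contacts between endothelial cells that is also found on platelets and leukocytes. It measured 27.7, 25.3 and 18.4 in the naive arrays, 26.0 and 21.5 at 0 h, 37.7 and 35.5 at 2 h, 20.2 and 18.3 at 3 h, 27.4, 12.9 and 25.9 at 6 h, 23.4 and 17.9 at 12 h, and 26.5 and 23.4 at 24 h. The 2 h arrays were above all others, and every other trained group overlapped with naive, with the lowest value on 6 h replicate 2. The log2 difference of 2 h from naive was 0.64 (SE 0.37, limma adjusted p = 0.70). Over all trained groups it was 0.02, with a 95% interval of -0.53 to 0.56, so a 1.47-fold rise or a fall to 0.693 of the naive level lies within the error.

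Vwf encodes von Willebrand factor, which endothelial cells store and which carries platelets to injured walls. Its _at probe set was at the floor on 15 arrays and reached 12.6 on naive replicate 2. Its _g_at probe set had 7.48, 5.61 and 14.2 in naive arrays and its highest value, 24.2, on 0 h replicate 2, the 1 array above the filter. Neither was tested, and no level over the 7 groups can be given.

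None of the other endothelial genes passed in any comparison. In trained against naive 5 of the 14 tested were higher and 9 lower, 0 had an unadjusted p under 0.05, and the median log2 difference was -0.03, against -0.01 over all tested probe sets. Their summed intensity over the 17 genes ranged from 849 to 1001 on the trained arrays and from 893 to 979 on the naive arrays. The smallest p in trained against naive was that of Plat, tissue plasminogen activator (-0.31, SE 0.18, limma adjusted p = 0.981). Nos3, the endothelial nitric oxide synthase, was at 5.59 on the log2 scale in trained groups and 5.24 in naive (difference 0.35, SE 0.23, same adjusted p).

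Slc2a1 encodes GLUT1, which carries glucose across the barrier and into glia, and it had 2 tested probe sets. The _at probe set measured 105, 125 and 138 in the naive arrays, 129 and 100.1 at 0 h, 85.3 and 72.3 at 2 h, 86.4 and 115 at 3 h, 107, 65.1 and 67.1 at 6 h, 138 and 92.9 at 12 h, and 114 and 73.99 at 24 h. Both 2 h arrays and 2 of the 3 arrays at 6 h were below every naive array. The log2 difference was -0.64 at 2 h (SE 0.29, limma adjusted p = 0.635) and -0.65 at 6 h (SE 0.26, limma adjusted p = 0.462). Naive had the highest mean of the 7 groups, and trained against naive gave -0.37 (SE 0.20, limma adjusted p = 0.981).

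The second Slc2a1 probe set, _s_at, followed the other at 2 h and not at 6 h. It had 505, 312 and 487 in the naive arrays, 492 and 535 at 0 h, 244 and 361 at 2 h, 332 and 342 at 3 h, 349, 761 and 395 at 6 h, 368 and 335 at 12 h, and 289 and 274 at 24 h. Naive replicate 2 was far under the other naive arrays, and 6 h replicate 2, which was among the lowest for the _at set, was the highest here. The log2 difference was -0.52 at 2 h, 0.15 at 6 h (SE 0.27) and -0.59 at 24 h (SE 0.30, limma adjusted p = 1). The 2 probe sets thus had opposite signs at 6 h, as also at 0 h (-0.10 for _at and 0.27 for _s_at), and the mean of both gave -0.25 at 6 h. For _s_at these signs rested on single arrays or settings: 6 h was -0.19 without 6 h replicate 2 and -0.07 without naive replicate 2, and with the actin ratio as a covariate it was -0.22 at 6 h and -0.36 at 0 h.

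Of 7 other glucose transporter genes, 4 were tested and 0 passed. Slc2a3, which encodes GLUT3, the transporter of neurons, was at 5.80 on the log2 scale in trained groups and 6.52 in naive (difference -0.72, SE 0.30, limma adjusted p = 0.922). The other 3, Slc5a1, Slc2a5 and Slc2a4, were 0.07 to 0.20 higher in trained groups.

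Abcb1a and Abcb1b are the rat genes for P-glycoprotein, the efflux pump of the barrier, and Abcb1a is the form known best from brain capillaries. Abcb1a lay near the floor on most arrays. It measured 2.66, 3.09 and 4.80 in the naive arrays, 5.79 and 7.19 at 0 h, 18.6 and 14.7 at 2 h, 3.13 and 3.30 at 3 h, 20.1, 9.70 and 7.08 at 6 h, 7.90 and 8.19 at 12 h, and 1.99 and 4.27 at 24 h. All arrays of the naive, 3 h and 24 h groups were under the floor of 5.05, all arrays of the other groups were over it, and the filter was exceeded on 2 arrays, 2 h replicate 1 and 6 h replicate 1. Against naive Abcb1a was at least 3.27-fold higher at 2 h (log2 at least 1.71, SE 0.54, limma adjusted p = 0.43) and at least 2.20-fold higher at 6 h (log2 at least 1.14, SE 0.48, limma adjusted p = 0.483). Abcb1a was tested only through the 2 arrays over the filter, which belong to these groups, where it was high. Its p-values therefore lend these differences no support.

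The deposited values of Abcb1a, before scaling, were all between 2.2 and 12.8, and several arrays with high scaled values had large scaling factors. The factor was 1.45 and 1.86 for the 2 h arrays and 1.86 for 6 h replicate 1, against 0.74 to 0.94 for the naive arrays. Before scaling the 2 h arrays had 12.8 and 7.9, against 3.2, 3.3 and 6.5 in the naive arrays, so they did not overlap on the deposited scale either, while at 12 h replicate 1 had 2.5 and became 7.90 by its factor of 3.16. With quantile normalization or median centring Abcb1a did not pass the filter. The part of the scaling in these differences was not tested.

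**Figure D3:**
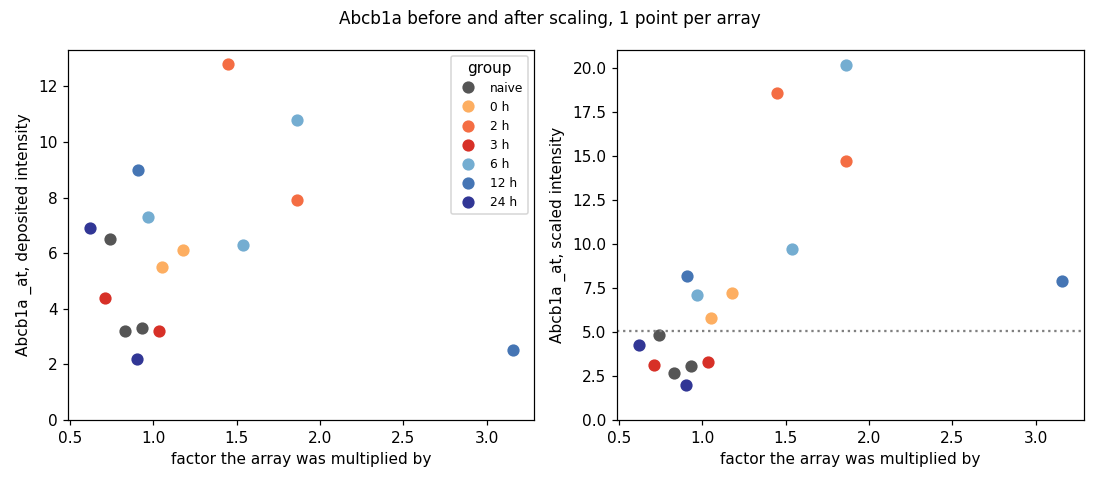
Abcb1a on each array as deposited (left) and after scaling (right) against the factor the array was multiplied by, with the floor dotted at right. The 2 h arrays sit at factors of 1.45 and 1.86 with deposited values of 12.8 and 7.9, and the naive arrays at factors under 1 with deposited values up to 6.5.

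Abcb1b had 28.6, 17.0 and 17.2 in the naive arrays, 20.7 and 25.1 at 0 h, 20.2 and 5.77 at 2 h, 21.3 and 8.36 at 3 h, 17.1, 10.8 and 11.9 at 6 h, 7.90 and 11.3 at 12 h, and 29.98 and 18.7 at 24 h. Replicates of 1 group differed widely, as at 2 h and 3 h, and the 12 h arrays were the only group wholly under the naive range. The log2 difference from naive was -1.11 at 12 h (SE 0.54, limma adjusted p = 0.504) and -0.91 at 2 h (SE 0.54, limma adjusted p = 0.706). The 2 h value rested on replicate 2: it was -0.01 without that array and -1.82 without replicate 1. With the actin ratio as a covariate, which was 1.96 to 2.80 on the arrays of these hours and 1.49 to 1.70 on the naive arrays, the difference turned to 0.17 at 2 h and 0.36 at 12 h. The ratio did not overlap with naive at these hours, so ratio and group cannot be told apart.

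Abcb4 encodes a transporter that moves phosphatidylcholine to the outer face of membranes, best known from the bile canaliculus of the liver, and is a close relative of the P-glycoprotein genes. It measured 43.04, 38.9 and 39.98 in the naive arrays, 60.3 and 47.5 at 0 h, 8.56 and 21.6 at 2 h, 24.7 and 28.2 at 3 h, 52.5, 39.9 and 41.1 at 6 h, 19.6 and 30.9 at 12 h, and 36.4 and 29.0 at 24 h. The naive arrays lay close together, the 0 h arrays were above them, and all arrays at 2 h, 3 h, 12 h and 24 h were below them. Ttr, a choroid plexus transcript, was low on the log2 scale at the same hours (6.14 to 9.03), against 10.8 to 11.9 in naive. Ttr was also low on 0 h replicate 2 (7.04), where Abcb4, at 47.5, was above every naive array. With Ttr as a covariate the Abcb4 difference turned to 0.12 at 3 h, 0.01 at 12 h and 0.63 at 24 h, and with the actin ratio it turned to -0.36 at 0 h, from 0.40. Neither covariate overlapped with naive at the hours given for it, so its part cannot be told apart from the group's. At 2 h the log2 level was 3.76 ± 0.94 (SD, n = 2), against 5.34 ± 0.08 in naive (n = 3), which is 2.99-fold lower.

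This was the smallest p among the vessel genes in any comparison with naive (log2 difference -1.58, SE 0.36), and it did not pass after adjustment (limma, adjusted p = 0.236). It was -2.25 without 2 h replicate 2 (adjusted p = 0.0861), -0.91 without 2 h replicate 1, and -0.88 with Ttr as a covariate (adjusted p = 0.816). In the F tests Abcb4 ranked 45 of 6220 over the 7 groups (limma adjusted p = 0.263) and 41 over the trained groups (limma adjusted p = 0.234). Its order of group means was 0 h, 6 h, naive, 24 h, 3 h, 12 h and 2 h. The 12 h mean exceeded the 2 h mean by 0.86 on the log2 scale (SE 0.40, limma adjusted p = 0.506).

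Of 33 other barrier transporters and receptors, 20 were tested and 0 passed. In trained against naive 6 were higher and 14 lower, with a median log2 difference of -0.07. Slco1a5, an organic anion transporter, was above the filter on 2 arrays and at the floor on 4, so its level is at the limit of measurement. It was at 3.04 on the log2 scale in trained groups and 4.89 in naive (difference -1.85, SE 0.47, limma adjusted p = 0.47). The naive mean lay above the filter and the trained mean below it. Slco1a5 was thus tested at least in part through the naive group, where it was high, and its p-value lends the difference no support. The monocarboxylate transporter Slc16a1 was at 5.94 in trained groups and 6.496 in naive (-0.56, SE 0.24, limma adjusted p = 0.922). Slco1a4, an organic anion transporter of brain capillaries, was 0.44 higher in trained groups (SE 0.27, limma adjusted p = 0.981). At 24 h 5 of the 20 had an unadjusted p under 0.05 (4.44% of all tested), all lower, among them Insr, the insulin receptor (-1.17), and Slco2a1, a prostaglandin transporter (-1.23). The choroid plexus and meninges list, with a sum of 839 to 930 at 24 h, against 3027 to 7164 in naive, was also low, and its part in these differences was not tested.

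Acta2 encodes the actin of smooth muscle and Tagln encodes transgelin (SM22), which binds actin in the same cells. In both Tagln probe sets and in Acta2 _s_at, 3 h had the highest mean and 24 h the lowest. Tagln _at measured 15.7, 23.8 and 39.1 in the naive arrays, 24.6 and 17.7 at 0 h, 19.4 and 80.0 at 2 h, 42.4 and 67.8 at 3 h, 29.6, 17.1 and 17.3 at 6 h, 31.3 and 19.5 at 12 h, and 7.40 and 13.7 at 24 h. Both 3 h arrays were above and both 24 h arrays below every naive array, and the highest value of all came from 2 h replicate 2. The log2 difference from naive was 1.13 at 3 h (SE 0.55, limma adjusted p = 0.998) and -1.28 at 24 h (SE 0.55, limma adjusted p = 1).

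Tagln _g_at had the same highest and lowest groups. It measured 30.8, 39.3 and 48.6 in the naive arrays, 41.7 and 28.5 at 0 h, 44.3 and 69.0 at 2 h, 64.8 and 61.2 at 3 h, 65.8, 48.0 and 44.9 at 6 h, 76.5 and 42.97 at 12 h, and 26.3 and 26.9 at 24 h. Again the 3 h arrays were above and the 24 h arrays below the naive range, with the replicates of each close together. The log2 difference from naive was 0.70 at 3 h (SE 0.33, limma adjusted p = 0.998) and -0.55 at 24 h (SE 0.33, limma adjusted p = 1). Over the 7 groups the F test gave a limma adjusted p of 0.44 for Tagln _at and of 0.437 for Tagln _g_at.

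Acta2 _s_at measured 34.1, 49.3 and 132 in the naive arrays, 61.3 and 58.7 at 0 h, 52.7 and 131 at 2 h, 93.2 and 113 at 3 h, 55.7, 126 and 41.0 at 6 h, 73.6 and 55.5 at 12 h, and 24.9 and 35.7 at 24 h. Naive replicate 3 was about as high as the highest trained array, so 3 h overlapped with naive, and the 24 h arrays overlapped with its lowest array. The log2 difference from naive was 0.77 at 3 h (SE 0.52) and -1.02 at 24 h (SE 0.52), with a limma adjusted p of 0.998 and 1. Leaving out naive replicate 3 gave 1.33 at 3 h, and leaving out naive replicate 1 gave 0.35.

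The other tested actin probe sets did not share this pattern. Acta2 _f_at lay between 14.5 and 52.7 on all arrays, and its group means ran from 12 h (log2 5.34) to 6 h (4.43). The Acta2-or-Actc1 _f_at set measured 27.0, 29.1 and 70.6 at 6 h, against 74.8, 54.3 and 73.3 in naive (log2 difference -0.81, SE 0.31, limma adjusted p = 0.445). Its 6 h arrays were split, 2 far under naive and replicate 3 within it, and without replicate 3 the difference was -1.25 with an adjusted p of 0.0423. The Acta2-or-Actc1 _i_at set measured 96.7 and 99.3 at 12 h, against 54.3, 56.8 and 56.9 in naive (log2 difference 0.81, SE 0.26, limma adjusted p = 0.358). Acta2 _i_at and the remaining pair of Acta2-or-Actc1 probe sets exceeded the filter on 0 arrays and were not tested. Acta2 _i_at, near the floor, also had its highest mean at 3 h (log2 3.40). It was at the floor on all arrays at 24 h, and likewise at 0 h.

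**Figure D4:**
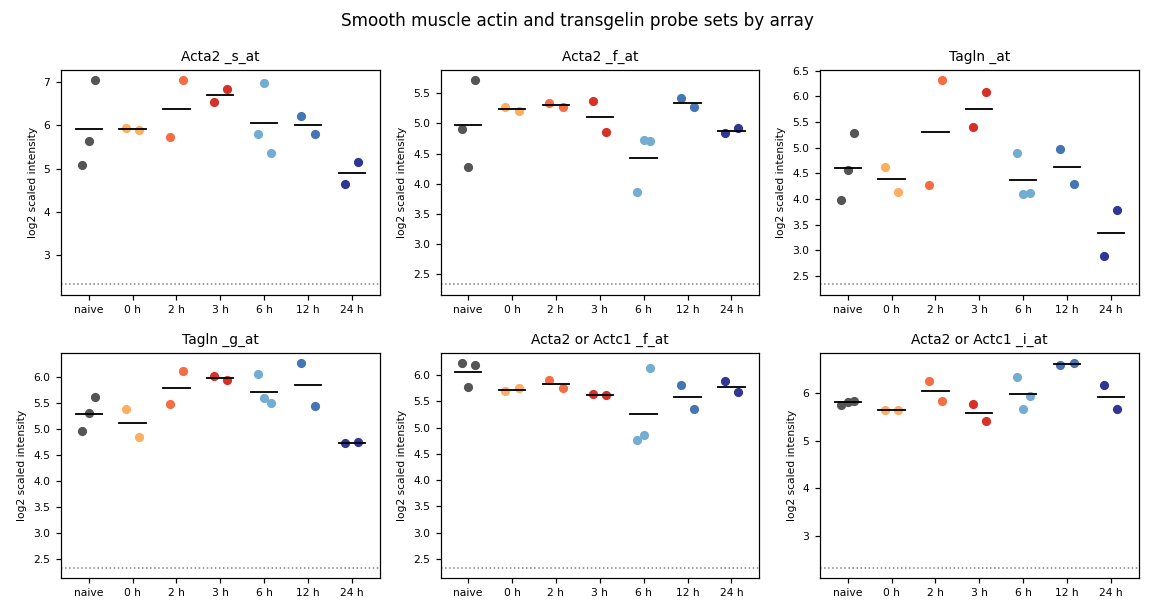
Log2 scaled intensity (vertical) of the 6 tested smooth muscle actin and transgelin probe sets on each array, by group from naive to 24 h. Points are arrays, bars are group means, and the dotted line is the floor. Tagln _at, Tagln _g_at and Acta2 _s_at have their highest mean at 3 h and their lowest at 24 h, and the other actin probe sets shown do not.

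Tagln and Acta2 _s_at varied together from array to array. Over the 16 arrays Tagln _at and Acta2 _s_at correlated at r = 0.81 (permutation p = 0.00018, 0.00054 after Benjamini-Hochberg adjustment over 6 pairs) and rho = 0.77 (permutation p = 0.00095, adjusted 0.00285). Without the 2 arrays farthest from the median of Tagln _at, 2 h replicate 2 and 3 h replicate 2, r was 0.74, and r of the deviations from the group means was 0.66. Tagln _g_at and Acta2 _s_at gave r = 0.71 (permutation p = 0.00235, adjusted 0.0047), rho = 0.72 (permutation p = 0.00196), 0.68 without the 2 farthest arrays and 0.54 within groups. Both Tagln probe sets gave r = 0.80 with each other. Acta2 _f_at correlated with none of the 3 past the threshold. Its r lay between 0.07 and 0.35 (lowest adjusted permutation p = 0.284) and its rho between 0.28 and 0.44 (lowest adjusted permutation p = 0.14). Within groups its r was 0.45 with Acta2 _s_at, -0.004 with Tagln _at and 0.03 with Tagln _g_at. The arrays share their hybridisation and scaling across probe sets, and the genes were chosen together.

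**Figure D5:**
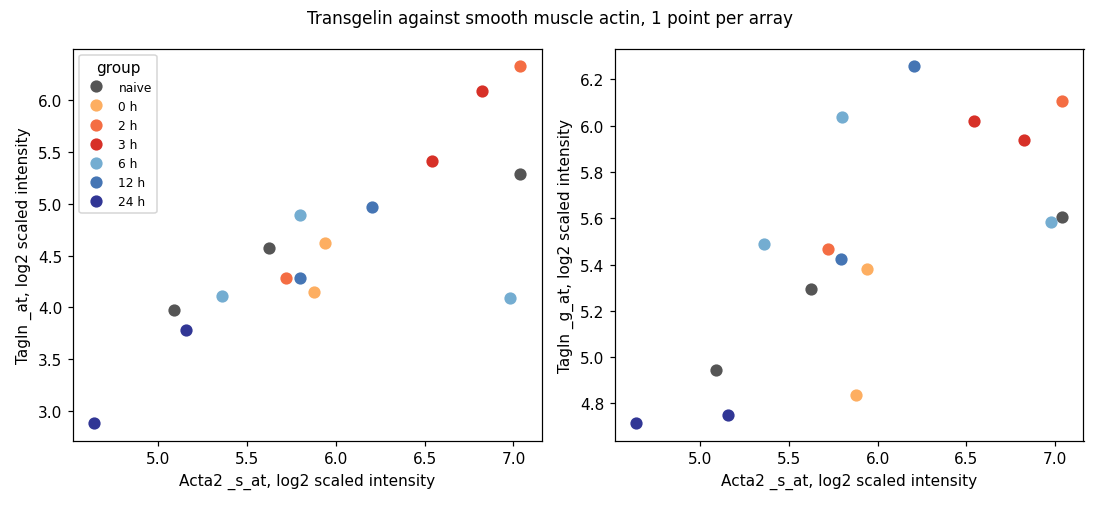
Tagln _at (left) and Tagln _g_at (right) against Acta2 _s_at, in log2 scaled intensity, with 1 point per array coloured by group. The 24 h arrays lie at the lower left and the 3 h arrays at the upper right of both panels, with r = 0.81 at left and 0.71 at right.

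Markers of other tissue also differed from naive at 3 h and 24 h, and the choroid plexus and meninges list was below naive at both and at 12 h. The 16 measured genes of a choroid plexus and meninges list summed to 1657 and 1668 at 3 h, to 1398 and 1990 at 12 h and to 839 and 930 at 24 h, against 3027 to 7164 in naive arrays. At 24 h 14 of the 16 were below naive and at 3 h 10 were. Aqp1, a water channel of the choroid plexus, was at the floor on every array at 2 h, 12 h and 24 h. It was at the floor on 10 arrays in all, naive replicate 1 among them, and no gene of the list was so on all 16. Aqp1 exceeded the filter on 2 arrays, naive replicates 2 and 3 (5.50 and 4.93 on the log2 scale). It was thus tested only through the naive group, where it was high, and its place in these counts lends them no support. Ttr, the main choroid plexus transcript, was at 6.19 and 6.203 on the log2 scale at 24 h, against 10.8 to 11.9 in naive. After adjusting for Ttr the 24 h difference of Tagln _at was 0.17, of Tagln _g_at 0.26 and of Acta2 _s_at -0.44, and at 3 h Tagln _at was 2.26. The 8 measured genes of a blood cell list summed to 2217 and 2691 at 3 h, against 1235 to 1608 in naive. Of the 6 tested, 4 were higher at 3 h, with a median log2 difference of 0.16. This was not particular to 3 h. At 2 h 5 of the 6 were higher, with a median of 0.31, and the sums were 1364 and, on replicate 2, 2518. Hbb, a beta globin, was 0.87 higher at 3 h on the log2 scale (SE 0.30, limma adjusted p = 0.998). Ttr did not overlap with naive at 3 h or 24 h, so this covariate and the group cannot be told apart. The part of these tissues in the actin and transgelin levels was not tested.

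Other mural genes gave 0 probe sets past the threshold in any comparison. In trained against naive 4 of 18 were higher and 14 lower, with a median log2 difference of -0.09, and at 24 h 6 were higher and 12 lower with a median of -0.24. Myh11, the smooth muscle myosin heavy chain, was at the floor on 3 arrays, 0 h replicate 1, 6 h replicate 2 and 24 h replicate 1. At 24 h it was thus at the floor on 1 array and at 2.88 on the log2 scale on replicate 2, against 4.22 to 4.33 in naive arrays (difference with the floor value -1.66, SE 0.57, limma adjusted p = 0.857). Its 3 h arrays, at 4.76 and 4.91, were above the naive arrays, and so were its 2 h arrays, at 4.57 and 5.27. The list as a whole had 7 of 18 higher and 11 lower at 3 h. Its median there was -0.06, against -0.07 over all tested probe sets. Csrp1, a LIM-domain protein that smooth muscle expresses strongly, was at 6.56 and 6.11 at 24 h, against 7.13 to 7.92 in naive (difference -1.22, SE 0.31, limma adjusted p = 0.326). Unlike Tagln, Csrp1 was also below every naive array at 3 h (7.08 and 6.78), and it was so at 12 h (6.93 and 7.06). At 2 h 8 of the 18 were higher and 10 lower, with a median of -0.02. Pdgfrb, the receptor that marks pericytes, was at 2.50 and 2.57 at 2 h, against 4.30 to 4.36 in naive (difference -1.79, SE 0.50, limma adjusted p = 0.354).

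Groups that were neighbours in the order of mean levels were also compared. Of the 84 neighbouring pairs, 6 for each of the 14 probe sets, 0 passed limma's adjusted test, and in 1 the unadjusted p was under 0.05. The background of all tested probe sets was 0% in most pairs of hour groups, 0.0161% for 6 h against 2 h, and 0.0322% for 3 h against 2 h and for 24 h against 12 h. The 1 pair was 12 h against 2 h in Abcb4, a comparison in which 9.69% of all tested probe sets had an unadjusted p under 0.05. The order itself picked these pairs, so they are a description. The span between the highest and the lowest group mean on the log2 scale was 2.41 in Tagln _at, 1.98 in Abcb4, 1.78 in Acta2 _s_at and 0.65 in Slc2a1 _at. In Abcb1a, with its lowest groups at the floor, it was at least 1.71, so it cannot be ranked among these.

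For each gene the 2 other probe sets with the most similar levels over the 16 arrays were found by Pearson's r, for the tested probe set of the gene with the highest mean. Acta2 _s_at was most like Aldh1a2, a retinoic acid synthesising enzyme (r = 0.89), and Tagln _at (0.81). Tagln _g_at was most like the collagen gene Col1a1 (0.77) and Fbln5, an elastic fibre protein (0.73). Flt1 was most like Pawr (0.89) and Myh7 (0.85), Pecam1 like Nop58 (0.88) and Rfc1 (0.88), and Slc2a1 _s_at like Prkcb (0.90) and Rasl11b (0.89). Abcb4 was most like Ptprf (0.77), Abcb1b like Hspb1 (0.80), Kdr like Nqo1 (0.80) and Abcb1a like Crybb2 (0.81). These are the highest of all correlations over arrays that share depth of signal and scaling, and they describe these arrays.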

How the data were processed

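Dentate gyrus RNA was measured on 16 one-colour arrays. The deposited table holds the authors' linear intensity summaries, 1 value per probe set and array, and the software that made them is not given in the sources used here, nor are its corrections. Replicates were not pooled in the table. Groups follow the labels. From these intensity values each array was scaled to the 2% trimmed mean of the median array over 8740 of 8799 probe sets (59 are controls). A floor was set at the 20th percentile of all values, log2 was taken, and the 6220 probe sets above the pooled 40th percentile on at least 2 arrays were tested.

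The test was limma's (version 3.58.1, R 4.3.3), with 1 model over the 7 groups and a mean-variance trend. Contrasts set against naive were each hour and the mean of the 6 trained groups, each group weighing equally. F tests covered the 7 groups and the trained groups, and neighbouring groups in each gene's order of levels were compared. P-values were adjusted by Benjamini-Hochberg over all 6220, with a threshold of 0.05. Correlations of the smooth muscle genes used 100000 permutations. The procedure was tested on simulated data.

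Symbols come from the platform annotation, updated through gene identifiers for 6985 of the probe sets: 7006 probe sets carry 1 symbol, 308 several and 1426 none. All probe sets of the 10 genes are accounted for. Genes named beside them belong to the marker lists, since none passed the threshold: up to 4 per list by the smallest p in trained against naive, or any other member of a list. Insr, Slco2a1, Myh11 and Hbb, and the hours given for Vegfa, Vegfb, Csrp1 and Pdgfrb, were picked after their values were seen. The members, lists and naming rule were chosen with earlier results of these data known. Alternatives changed the normalization, floor, filter, variance model, array weights, replicate block, covariates (beta-actin 3'/5' ratio, Ttr level) and the arrays used. Where a covariate did not overlap between a group and naive, covariate and group cannot be told apart. Leaving out both least correlated arrays was chosen after seeing the data.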

Additional observations from a re-analysis of the deposited data

How the results depend on the processing

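No direction of a called result could change, since no vessel probe set was past the adjusted threshold, and the number past it was 0 under every alternative run, with 1 exception: without 6 h replicate 3 the Acta2-or-Actc1 _f_at set passed at 6 h (range 0 to 1 with an array left out). The neighbouring pairs past the threshold were 0 throughout. Of 98 differences of the 14 probe sets from naive, 47 did not change sign under any alternative run. These include Abcb1a at 3 h and 24 h, where the difference was 0 with both groups at the floor and had no sign to change. Of the 10 with an unadjusted p under 0.05, 9 kept their sign, and the other was Tagln _at at 24 h (0.17 after adjusting for Ttr). Quantile normalization and median centring left 13 of the 14 to test, without Abcb1a, and median centring moved the median of all probe sets at 3 h to 0.11, from -0.07.

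Over all probe sets the number past the threshold depended on the setting. With no filter on low values it was 2 at 0 h, 8 at 2 h, 27 at 12 h, 1 in trained against naive, 23 over the 7 groups and 24 over the trained groups. With no variance trend it was 1 at 12 h and 2 in each F test. With array weights it was 6 at 24 h, with the actin ratio as a covariate 2 at 3 h, and with only the groups compared 2 at 12 h and 4 at 24 h. The 1 probe set at 2 h gave 0 under quantile normalization, either covariate, averaging per gene and only the groups compared. Leaving out single arrays gave 0 to 0 at 0 h, 0 to 11 at 2 h, 0 to 9 at 3 h, 0 to 29 at 6 h, 0 to 23 at 12 h, 0 to 12 at 24 h, 0 to 17 in trained against naive, 0 to 8 over the 7 groups and 0 to 7 over the trained groups. The highest came without naive replicate 1 (2 h, 3 h, 24 h, trained), 6 h replicate 3 (6 h, both F tests) and 12 h replicate 2 (12 h). Without both least correlated arrays 10 passed at 12 h and 0 at 2 h. The cause was not tested.

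The main model did not pair the arrays by replicate number, and the labels do not say what the numbers stand for. Over 43 pairs of the same number the deviations from group means averaged a correlation of 0.03, with 12 above 0.1. Over 66 pairs of different numbers they averaged -0.02, with 6 above 0.1. Among the other groups, 12 of 16 arrays were most like an array of their own number. Arrays of the same number were thus somewhat more alike, and the main model takes no account of this. With the replicate block the number past the adjusted threshold at 2 h was 0 and no other such number moved. The vessel probe sets with an unadjusted p under 0.05 were then 0 at 3 h, 2 at 12 h, 0 at 24 h, 4 over the 7 groups and 5 over the trained groups. Signal near the floor limits Abcb1a, Kdr and Vwf most, and groups of 2 or 3 arrays limit all genes.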
